A study of Mus musculus with 17 samples.

Results

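Mouse neural retinal progenitor cells (mNRPCs) are a self-renewing culture raised from the adult retina of C57BL/6 mice, and the question here was how their transcriptome changed between day 1 and day 3 in medium with basic fibroblast growth factor (bFGF). The libraries were chosen by their labels, with earlier results of these data known. They were 4 of the 17 RNA-seq libraries of the series, B of day 1, BC of day 1, B of day 3 and BC of day 3. B was the basic medium BM (N2/B27) with bFGF, and BC was BM with bFGF and CHIR99021, an inhibitor of the kinase GSK-3. All 4 libraries therefore had bFGF, and CHIR99021 was a covariate in the comparison of the 2 libraries of day 3 with the 2 of day 1. The other libraries were 1 day 0 control, 4 of BM and 4 of C (BM with CHIR99021) over days 1, 3, 5 and 7, and B and BC of days 5 and 7. Each treatment and day had 1 library. Nothing in the labels placed B and BC in separate cultures, and the mNRPCs were described as 1 established line. The p-values below therefore measure the spread between these libraries, on 1 residual degree of freedom that edgeR moderated across genes.

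bFGF binds FGF receptor tyrosine kinases and is a standard mitogen for neural and retinal progenitors, acting in large part through the RAS and ERK cascade. GSK-3 marks β-catenin for destruction, and its inhibition by CHIR99021 is used to raise canonical Wnt signaling. In growing cells, ribosome production, nucleotide and amino acid synthesis and DNA replication usually rise and fall together. Hypoxia-inducible factor (HIF) is the oxygen-sensitive transcription factor that switches on glycolysis and other genes when oxygen is low.

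The 4 libraries held between 18151269 and 18936673 expected counts, within the range of 17571973 to 19428744 over the series, and 14029 of the 17191 genes listed in any of the 4 were listed in all of them. The retinal identity of the cells was checked with markers, in FPKM, which scales fragments to transcript length and library size. Pax6 and Six3, transcription factors of the eye field, and Sox2, a neural progenitor factor, were expressed in the 4 libraries. Rax and Six6, which define embryonic retinal progenitors, were at an FPKM of 0 in each of them, and 14 of 28 progenitor factors were below 1 in all 4. Markers of other cells differed by type. Below an FPKM of 1 in all 4 libraries were 23 of 25 photoreceptor and bipolar markers, 20 of 28 neuronal markers, 13 of 14 RPE (retinal pigment epithelium) markers, 14 of 17 microglia and macrophage markers, 14 of 16 endothelial and pericyte markers and all 18 epithelial markers. Fibroblast and mesenchymal markers were widely expressed, with 6 of 26 below 1 in all 4 libraries and sums of 1190 to 1530, among them S100a4, Col3a1 and Prrx1. Of 24 Müller glia and astrocyte markers, 12 were below 1 in all 4 libraries, and the sums ran from 2160 to 4760. The largest part of each sum was Vim, at 1640 to 3502, followed by Cryab at 322 to 773. Gfap, Rlbp1 and Slc1a3 of that list were at 0.04 or less, while Glul was at 17.3 to 32.6 and Sox9 at 18.6 to 24.4.

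A total of 11139 genes averaged 1 FPKM or more over the 4 libraries. Of these, 6126 (55.0%) changed from day 1 to day 3 at an adjusted p under 0.05 in edgeR's quasi-likelihood test with the same sign in B and in BC. These were 3059 genes that rose (27.5% of those tested) and 3067 that fell (27.5%). Counts of list members that rose or fell with bFGF are to be read against these shares throughout. The test at an unadjusted p under 0.05 took 6704 genes, and 3 genes past the adjusted threshold were left out because B and BC went opposite ways (Cln8, Depdc5 and Znrf1, named after their values were seen). At least a 2-fold change was fitted for 1303 of the genes that rose and 1049 of those that fell, and at least a 4-fold change for 377 and 112. With 1 of the 4 libraries left out, the spread came from B against BC of the day that kept both. B and BC were at least 2 times apart in 18 genes on day 1 and in 235 on day 3. A call lost without a day 1 library was thus measured against the wider day 3 difference. Dropping B of day 1 or BC of day 1, which leaves the other day 1 library alone, took the count to 1920 and 1390, whereas it was 6842 and 6367 without B or BC of day 3. The genes called without B of day 1 were 1916 of those called in full and 1389 without BC of day 1, none with the opposite sign.

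The change had the same course in B and in BC for most genes. On the log2(FPKM + 1) scale, 1579 genes were at least 2 times apart between the days in B and 2356 in BC, and 1355 were so in both in the same direction against 2 in opposite directions. The Pearson correlation of the change in B with that in BC was 0.905 over genes, a description since genes do not replicate one another. Among the 6126 genes, 4266 (69.6%) had the larger change in BC, and the median size of the change was 0.69 in B and 0.83 in BC.

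**Figure D1:**
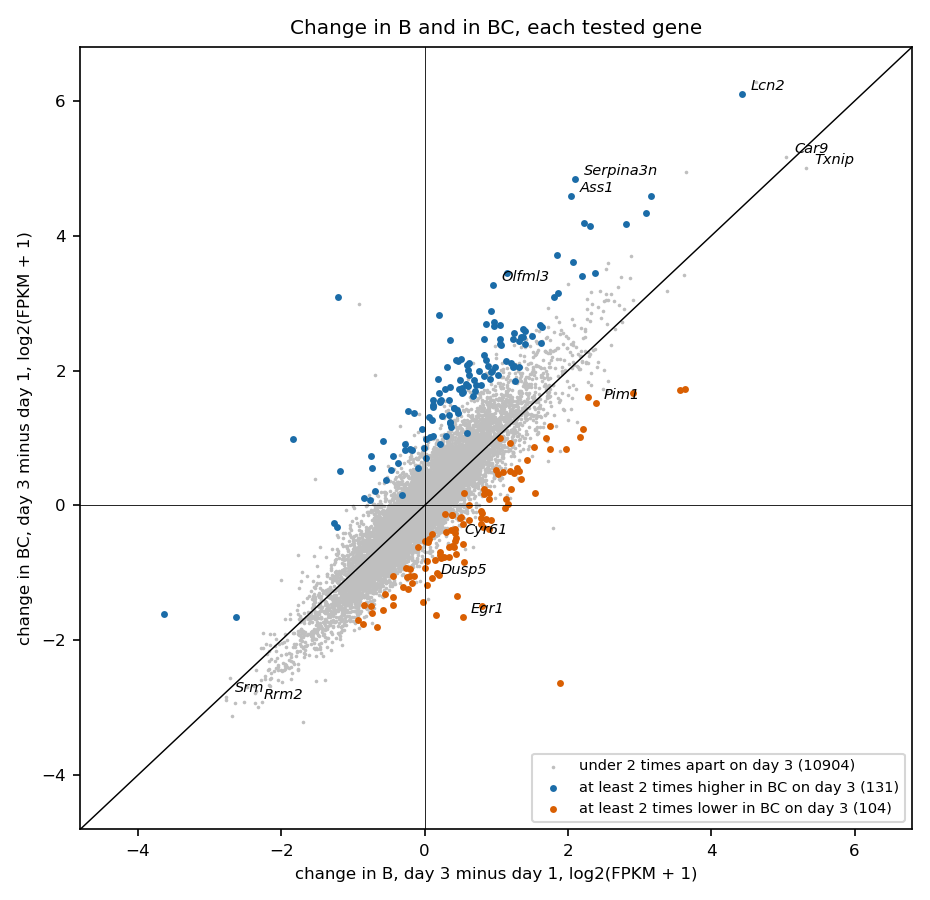
Change from day 1 to day 3 in B (x axis) and in BC (y axis) for each tested gene, both as differences of log2(FPKM + 1), with 1 library per treatment and day. Most genes lay near the diagonal, 131 genes were at least 2 times higher in BC than in B on day 3 (blue) and 104 at least 2 times lower (orange).

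The genes that rose furthest included secreted and stress-related proteins. Lcn2, which codes for the iron carrier lipocalin 2, was at an FPKM of 3.43 in B and 3.06 in BC on day 1, and 94.5 and 277 on day 3 (log2 fold change 5.71 ± 0.35, adjusted p = 4.36e-05, given as estimate ± SE here and below on the log2 scale). Angptl7, a secreted angiopoietin-like protein, was at 28.2 in B and 10.9 in BC on day 1, and 718 and 919 on day 3 (5.56 ± 0.40, adjusted p = 5.92e-05). Car9, the cell surface carbonic anhydrase and a classical HIF target (Entrez gene 230099), was at 4.24 in B and 4.94 in BC on day 1, and 171 and 213 on day 3 (5.43 ± 0.16, adjusted p = 6.13e-06). For each of the 3 genes both day 3 libraries lay far above both day 1 libraries. Txnip, an inhibitor of thioredoxin and of glucose uptake, went from 23.2 in B and 32.3 in BC to 965 and 1063 (5.25 ± 0.17, adjusted p = 7.12e-06) and was the most abundant of the 15 genes with the largest rises on day 3. The complement genes C1s1 and C3 rose by 5.36 and 3.70 on the log2 scale, with C3 at 2.27 in B and 2.08 in BC on day 1, and 15.3 and 53.7 on day 3. Further rises were seen for the water channel gene Aqp8 (4.57), for Selenbp1 (4.51), Ankrd37 (4.51), Cdhr5 (4.41), Fbxo2 (4.20), the lysosomal protease gene Ctsf (4.07), the matrix gene Spon2 (3.71), Gstt1 (3.67) and the protease inhibitor gene Serpina3n (5.01). Cdhr5 was not called without BC of day 1. Spon2 and Serpina3n were not called without B of day 1 or BC of day 1 (highest adjusted p of these = 0.073).

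The genes that fell furthest included many of ribosome assembly. Rrp12, a factor in the export and maturation of ribosomal subunits, was at 11.4 in B and 13.6 in BC on day 1, and 1.58 and 0.93 on day 3 (-3.29 ± 0.25, adjusted p = 6.4e-05). Ranbp1, which codes for a regulator of the nuclear transport GTPase Ran, was at 223 in B and 244 in BC on day 1, and 31.8 and 32.3 on day 3 (-2.82 ± 0.14, adjusted p = 4.05e-05). Srm, spermidine synthase, was at 171 in B and 209 in BC on day 1, and 24.3 and 28.4 on day 3 (-2.80 ± 0.13, adjusted p = 4.05e-05). In these genes the day 3 libraries lay far below the day 1 libraries. Heatr1 (-3.14), Utp20 (-2.78), Bysl (-2.77), Ddx21 (-2.75) and Nolc1 (-2.67) act in the nucleolus on ribosomal RNA or its assembly. Heatr3 (-3.08), the exonuclease gene Aen (-3.17), the helicase gene Recql4 (-2.71), the ribonucleotide reductase gene Rrm2 (-2.70), the histone gene Hist1h2ap (-2.72), Gm42226 (-3.65) and Gm5601 (-3.14) completed the 15 largest falls. Hist1h2ap and the Gm models may share reads with near-identical copies, and Gm5601 was listed at 0 in B of day 3, so their values are uncertain. Hist1h2ap was not called without BC of day 1. Gm5601 was not called without B of day 1 or BC of day 1 (highest adjusted p of these = 0.287).

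**Figure D2:**
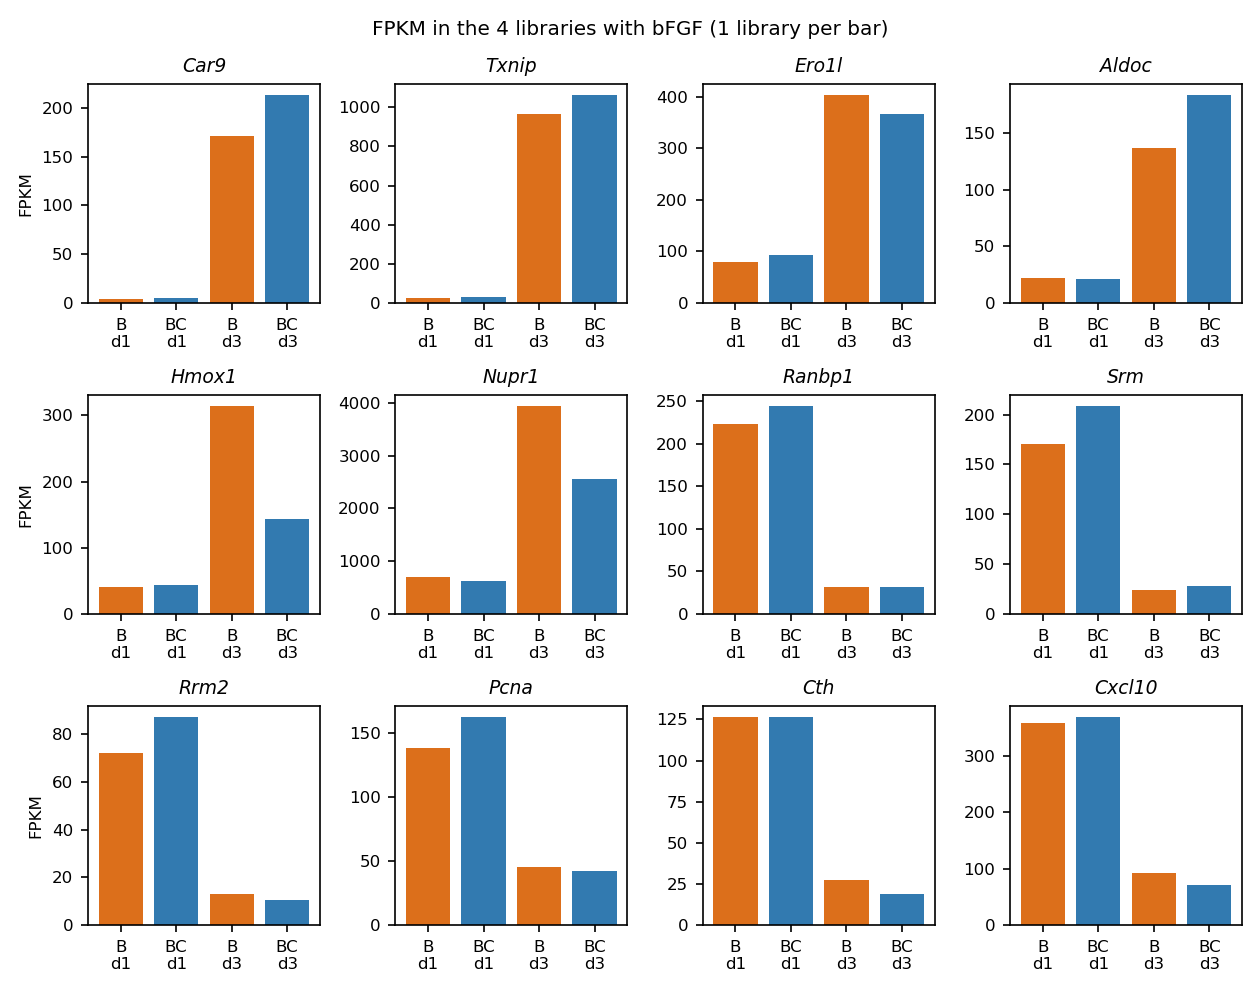
FPKM of 12 genes (y axis, linear, from 0) in B (orange) and BC (blue) of day 1 and day 3, with 1 library per bar and no error bar. The 6 genes Car9, Txnip, Ero1l, Aldoc, Hmox1 and Nupr1 were higher in both day 3 libraries, and the 6 genes Ranbp1, Srm, Rrm2, Pcna, Cth and Cxcl10 were lower in both.

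The machinery of ribosome production fell as a group. Of 45 tested ribosome biogenesis genes, 44 fell and none rose, against 27.5% of all tested genes that fell, with a median log2 fold change of -1.80 where the median of all genes was 0.006. Without B of day 1 there were 38 that fell and without BC of day 1 there were 39. The most abundant member, the nucleolar chaperone Npm1, fell least among those named, at 753 in B and 883 in BC on day 1, and 545 and 532 on day 3 (-0.55 ± 0.14, adjusted p = 0.00941). The genes for the proteins of the finished cytosolic ribosome went another way: of 80 tested, 8 rose, 4 fell and 68 passed in neither direction, with a median of 0.09. Rps27 was at 818 in B and 927 in BC on day 1, and 1022 and 1358 on day 3 (0.48 ± 0.13, adjusted p = 0.0157). Rpl17, the most abundant, rose by 0.42 on the log2 scale, while Rps27l fell (-1.07), as did Rps2 (-0.61). The counts of rises and falls in this group were 22 and 6 in the fit of 8 libraries of days 1 and 3, 14 and 4 with a minimum mean FPKM of 5, 4 and 4 without CHIR99021 as a covariate. They were 15 and 5 without B of day 3, 1 and 4 without BC of day 3, and 0 and 1 without B or BC of day 1. Npm1 and Rps2 were not called without B of day 1 or BC of day 1. Rps27 and Rpl17 were not called without B of day 1, BC of day 1 or BC of day 3 (highest adjusted p of these = 0.349).

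Protein synthesis and turnover genes fell beside them. Of 23 aminoacyl-tRNA synthetase genes, whose products charge tRNAs with amino acids, 21 fell and none rose (median -1.22), and 17 fell without B of day 1 and 14 without BC of day 1. Wars, for tryptophan, was at 75.4 in B and 85.2 in BC on day 1, and 25.7 and 13.1 on day 3 (-2.07 ± 0.25, adjusted p = 0.000365), Lars fell by 1.62 on the log2 scale and Nars, the most abundant, by 1.22. Of 37 proteasome genes, 26 fell and 2 rose (median -0.66), with 10 falls without B of day 1 and 5 without BC of day 1. The regulatory particle genes Psmc4 (-1.52) and Psmd6 (-1.33) fell furthest. The 2 that rose were Psmb9 and Psmb8 (0.70), catalytic subunits of the immunoproteasome, the form of the proteasome induced with antigen presentation. Psmb10, a further catalytic subunit of that form, fell (-0.96), so its subunit genes did not rise together. Psmb9 was at 32.4 in B and 35.8 in BC on day 1, and 56.5 and 96.4 on day 3 (1.17 ± 0.17, adjusted p = 0.000855). Psmd8 was at 264 and 214 on day 1 and 380.1 and 190.4 on day 3 in B and BC and was not called (0.22). Psmb9 and Psmb8 were not called without B of day 1 or BC of day 1 (highest adjusted p of these = 0.109).

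Mitochondrial genes fell less. Of 77 mitochondrial ribosomal protein genes, 47 fell and 2 rose (median -0.57), and 15 fell without B of day 1 and 4 without BC of day 1. Mrpl12 was at 104 in B and 115 in BC on day 1, and 36 and 36.6 on day 3 (-1.54 ± 0.13, adjusted p = 9.32e-05), Mrpl20 fell (-1.5) and Mrpl14 (0.42) and Mrpl24 (0.38) rose. Of 75 genes for oxidative phosphorylation subunits, 34 fell and 3 rose (median -0.29), with 6 falls without B of day 1 and 3 without BC of day 1. Cyc1 was at 169 in B and 195 in BC on day 1, and 76.4 and 70.5 on day 3 (-1.27 ± 0.14, adjusted p = 0.000249), Atp5g1 fell (-1.22), as did Atp5b (-0.86), the most abundant member. Ndufv3 (1.38) and Uqcrh (1.02) rose, in both day 3 libraries above both day 1 libraries. Mrpl14 and Mrpl24 were not called without B of day 1 or BC of day 1. Atp5b was not called without BC of day 1. Uqcrh was not called without B of day 1 (highest adjusted p of these = 0.304).

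Most tested genes of amino acid synthesis and transport fell. ATF4 is the transcription factor that amino acid shortage switches on. Of its targets and serine synthesis genes, 19 of 25 tested fell and 4 rose (median -1.13), with 12 falls and 1 rise without B of day 1 and the same without BC of day 1. Cth, which makes cysteine from cystathionine, was at 126 in B and 127 in BC on day 1, and 27.4 and 19.1 on day 3 (-2.43 ± 0.17, adjusted p = 5.31e-05). Shmt2, the mitochondrial serine hydroxymethyltransferase, was at 224 in B and 238 in BC on day 1, and 55.9 and 37.8 on day 3 (-2.28 ± 0.18, adjusted p = 7.55e-05). The 4 that rose were the transcription factor genes Ddit3 (0.87) and Cebpb (0.71), Nupr1 and Gdf15. Cth and Shmt2 fell in B and BC, and BC of day 3 was the lowest library. Nupr1, a small stress-induced chromatin protein, rose from 692 in B and 635 in BC to 3943 and 2560.3 (2.30 ± 0.16, adjusted p = 5.8e-05). Gdf15, a secreted stress cytokine, was at 48 in B and 50.1 in BC on day 1, and 191 and 90.6 on day 3 (1.47 ± 0.25, adjusted p = 0.00161). Gdf15 was not called without B of day 1 or BC of day 1 (highest adjusted p = 0.0938). The promoters of these genes were searched for TTGCATC on both strands, letters of the amino acid response element, in the 250 bases before the start of the first RefSeq entry of each gene (GRCm38.p6). It was found in 3 of 22 list members with an entry (13.6%) and in 144 of 8979 tested genes (1.6%). Among all genes that rose the share was 2.0%, and among those that fell it was 1.4%. The same letters stood before Nupr1, which rose, and Slc7a11, the cystine transporter gene, which fell (8.45 in B and 10.4 in BC on day 1, and 3.34 and 5.25 on day 3, -1.13 ± 0.14, adjusted p = 0.000467). Shown are the 150 bases before each start, 5′ to 3′ on the gene's strand with matches in capitals (GATGCAA where the match is on the other strand), for Nupr1 (chr7:126625471-126625620, minus strand) and Slc7a11 (chr3:50443614-50443763, minus strand).
Nupr1: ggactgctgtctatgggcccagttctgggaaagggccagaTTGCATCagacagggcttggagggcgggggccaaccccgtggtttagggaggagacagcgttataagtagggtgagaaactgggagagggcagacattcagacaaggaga
Slc7a11: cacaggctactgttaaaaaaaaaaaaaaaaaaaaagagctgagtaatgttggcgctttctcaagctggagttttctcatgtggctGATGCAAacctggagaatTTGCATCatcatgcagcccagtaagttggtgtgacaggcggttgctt

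Heat shock protein genes fell more often than they rose. Of 19 heat shock protein genes, 11 fell and 4 rose, with 6 falls without B of day 1 and 5 without BC of day 1, no rise without either of them, and 2 rises without B of day 3. Hspd1, the mitochondrial chaperonin, was at 429.7 in B and 460.3 in BC on day 1, and 103 and 84 on day 3 (-2.21 ± 0.15, adjusted p = 5.57e-05), and the cytosolic chaperone gene Hsp90aa1 fell (-1.79), as did Hsp90ab1 (-0.42), the most abundant. The small heat shock gene Hspb1 rose, at 163 in B and 113 in BC on day 1, and 531 and 227 on day 3 (1.40 ± 0.18, adjusted p = 0.00048), with B of day 3 more than 2 times BC of day 3. Hspa1a rose as well (0.75). Hsp90ab1 was not called without B of day 1, BC of day 1 or BC of day 3. Hspb1 was not called without B of day 1 or BC of day 1. Hspa1a was not called without B of day 1, B of day 3 or BC of day 1 (highest adjusted p of these = 0.301). DESeq2 and the fit without the CHIR99021 covariate each called 1 rise.

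DNA replication genes fell without exception. All 44 tested genes of DNA replication and S phase fell (median -1.51), and 33 did so without B of day 1 and 24 without BC of day 1. Rrm2, which supplies deoxyribonucleotides, was at 72 in B and 87.3 in BC on day 1, and 13.2 and 10.6 on day 3 (-2.70 ± 0.17, adjusted p = 4.67e-05). Pcna, the sliding clamp of DNA polymerase and the most abundant of the group, was at 138 in B and 163 in BC on day 1, and 45.3 and 42.5 on day 3 (-1.73 ± 0.14, adjusted p = 8.14e-05). Ccne2, cyclin E2, fell from 7.23 and 9.26 to 2.14 and 0.71 (-2.59 ± 0.39, adjusted p = 0.00103). Of 58 genes of G2/M and mitosis 50 fell and none rose (median -0.89, -0.65 in B and -1.13 in BC on the log2(FPKM + 1) scale), with 24 falls without B of day 1 and 13 without BC of day 1. Mybl2, a transcription factor of the cell cycle, was at 30.5 in B and 33 in BC on day 1, and 7.63 and 4.73 on day 3 (-2.31 ± 0.20, adjusted p = 9.81e-05). Sgol1, the protector of centromere cohesion, fell (-1.47). Ube2c, an enzyme of the anaphase-promoting complex and the most abundant, was at 196 in B and 194 in BC on day 1, and 161 and 109 on day 3 (-0.51 ± 0.16, adjusted p = 0.0259). Ccne2 was not called without BC of day 1. Ube2c was not called without B of day 1, BC of day 1 or BC of day 3 (highest adjusted p of these = 0.303).

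Letters bound by cell cycle transcription factors were looked up in the same 250 bases before the start. TTCCCGC, an E2F motif, was present on either strand in 11 of 36 replication genes with an entry (30.6%) and in 7.4% of all 8979 tested genes. TTTGAA, the letters of the cell cycle homology region (CHR), was present in 14 of 49 mitotic genes (28.6%) and in 10.5% of all, and CCAAT in 35 of 49 (71.4%) and in 37.8% of all. CACGTG, the E-box of MYC, was present in 3 of 39 ribosome biogenesis genes (7.7%), close to 8.6% of all. Among all genes that rose and all that fell, the shares were 6.1% and 9.0% for TTCCCGC and 8.9% and 12.7% for TTTGAA. They were 38.3% and 37.2% for CCAAT and 8.5% and 9.3% for CACGTG. These matches are letters in a window and not measured binding. Shown are the list members with the largest fitted change that carry the E2F letters within 150 bases of the start, Cdc6 (chr11:98908001-98908150, plus strand, log2 fold change -2.42) and Rrm1 (chr7:102441545-102441694, plus strand, -1.77), and the CHR letters, Ect2 (chr3:27153879-27154028, minus strand, -1.33), with the match in capitals. In Cdc6 the match is on the other strand and reads GCGGGAA.
Cdc6: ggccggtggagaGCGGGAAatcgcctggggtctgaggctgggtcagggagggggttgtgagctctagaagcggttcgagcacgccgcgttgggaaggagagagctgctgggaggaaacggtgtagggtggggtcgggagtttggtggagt
Rrm1: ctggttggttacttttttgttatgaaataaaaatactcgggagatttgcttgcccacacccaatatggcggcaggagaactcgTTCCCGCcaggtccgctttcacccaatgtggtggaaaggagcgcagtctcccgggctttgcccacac
Ect2: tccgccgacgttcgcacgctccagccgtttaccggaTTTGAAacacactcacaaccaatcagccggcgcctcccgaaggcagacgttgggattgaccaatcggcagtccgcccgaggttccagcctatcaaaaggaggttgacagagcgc

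G1 regulators went both ways, with 7 of 16 that rose and 5 that fell. Ccnd1, cyclin D1 and a target of ERK signaling, was at 717 in B and 649 in BC on day 1, and 419.8 and 252 on day 3 (-1.02 ± 0.17, adjusted p = 0.00145), and the order on both days was B above BC. Ccnd2 (-1.13) and the pocket protein gene Rbl1 (-1.33) fell too. Cdkn1b, which codes for the CDK inhibitor p27, was at 17.5 in B and 15.7 in BC on day 1, and 49.4 and 51 on day 3 (1.64 ± 0.13, adjusted p = 8.13e-05), and Cdkn1c, for p57, rose from a low level (1.82). Without B of day 1 there were 3 rises and 3 falls, and 2 and 3 without BC of day 1. Ccnd1 and Cdkn1c were not called without B of day 1 or BC of day 1 (highest adjusted p of these = 0.132).

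Genes induced by low oxygen rose as a group. Of 20 tested HIF target genes, 19 rose and none fell (median 1.49), in contrast to 27.5% of all tested genes that rose, and 14 rose without B of day 1 and 12 without BC of day 1. Ndufa4l2, an inhibitor of mitochondrial respiration, was at an FPKM of 0.11 in B and 0.06 in BC on day 1, and 4.32 and 7.89 on day 3 (6.11 ± 0.56, adjusted p = 0.000115). Its fold is imprecise, since the day 1 level was near 0. Ero1l, an oxidase of the endoplasmic reticulum and the most abundant member, was at 80.2 in B and 93.2 in BC on day 1, and 404 and 366 on day 3 (2.20 ± 0.15, adjusted p = 5.2e-05). With Car9, all 3 had both day 3 libraries above both day 1 libraries. Of 22 glycolysis genes, 15 rose and none fell (median 0.67), with 8 rises when either day 1 library was left out. Aldoc, aldolase C, was at 22.5 in B and 21.2 in BC on day 1, and 137 and 184 on day 3 (2.91 ± 0.16, adjusted p = 4.36e-05). The lactate exporter gene Slc16a3 rose from under 1 to 5.17 and 4.13 (3.02 ± 0.29, adjusted p = 0.000133). Gapdh, the most abundant, rose from 2468 and 2991 to 4201 and 4355 (0.70 ± 0.13, adjusted p = 0.00296). Gapdh was not called without B of day 1 or BC of day 1 (highest adjusted p = 0.139).

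The core letters of the hypoxia response element, ACGTG, which also lie within the E-box CACGTG, stood on either strand of the 250 bases before the start in 9 of 16 HIF targets with a RefSeq entry (56.2%). They stood in 22.6% of all 8979 tested genes, 21.7% of those that rose and 23.1% of those that fell. The 2 members with the largest change that carry it within 150 bases of the start were Car9 (chr4:43506876-43507025, plus strand) and Ankrd37 (chr8:45999851-46000000, minus strand), the latter at 1.19 and 0.66 on day 1 and 26 and 16.7 on day 3 (4.51 ± 0.26, adjusted p = 4.36e-05). Their 150 bases before the start are shown with the match in capitals, which in Car9 is on the other strand and reads CACGT.
Car9: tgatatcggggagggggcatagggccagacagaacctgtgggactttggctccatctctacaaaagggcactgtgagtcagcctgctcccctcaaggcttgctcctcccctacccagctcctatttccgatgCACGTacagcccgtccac
Ankrd37: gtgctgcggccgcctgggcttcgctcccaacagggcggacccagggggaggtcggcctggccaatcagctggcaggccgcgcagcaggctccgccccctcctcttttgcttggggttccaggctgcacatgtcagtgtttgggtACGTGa

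Lipid synthesis and antioxidant genes were mixed. Of 32 genes of cholesterol and fatty acid synthesis, 18 fell and 2 rose (median -0.42), with 7 falls without B of day 1 and 4 without BC of day 1. Acat2, acetyl-CoA acetyltransferase, was at 137 in B and 141 in BC on day 1, and 52.8 and 57.9 on day 3 (-1.28 ± 0.13, adjusted p = 0.000161), Lss, lanosterol synthase, fell (-1.26), as did Fdps, farnesyl diphosphate synthase and the most abundant (-0.86). The fatty acid desaturase gene Fads1 (0.58) and the regulator gene Srebf1 (0.52) rose. The letters CACCCCA, a sterol response element, stood on either strand before 3 of 21 members with a RefSeq entry (14.3%) and before 6.7% of all tested genes. They stood before 8.5% of the genes that rose and 5.3% of those that fell. Of 27 NRF2 target, antioxidant and ferritin genes, 12 rose and 12 fell, and 5 rose and 2 fell without B of day 1 and 5 and 1 without BC of day 1. Hmox1, heme oxygenase 1, was at 40.9 in B and 44.3 in BC on day 1, and 314 and 143 on day 3 (2.36 ± 0.27, adjusted p = 0.00029), with B of day 3 at more than 2 times BC. Ftl1, the ferritin light chain, was at 4331 in B and 5443 in BC on day 1, and 8027 and 8126 on day 3 (0.78 ± 0.14, adjusted p = 0.00215), Gsta4 rose (2.31), and Slc7a11 (-1.13) and Gsr, glutathione reductase (-1.10), fell. Fdps, Fads1, Srebf1, Ftl1 and Slc7a11 were not called without B of day 1 or BC of day 1 (highest adjusted p of these = 0.229).

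Lysosome genes rose broadly. Of 35 tested, 30 rose and 1 fell (median 0.96), with 15 rises without B of day 1 and 11 without BC of day 1. Ctsf, cathepsin F, was at 1.79 in B and 0.86 in BC on day 1, and 19.5 and 23.1 on day 3 (4.07 ± 0.30, adjusted p = 6.13e-05). Gusb, β-glucuronidase, was the 1 that fell, at 30.9 in B and 30.6 in BC on day 1, and 10.3 and 13.3 on day 3 (-1.35 ± 0.15, adjusted p = 0.00025). Cd63, the most abundant, was at 651 and 649 on day 1 and 809 and 769 on day 3 and did not pass (adjusted p = 0.0608 by edgeR). In Ctsf both day 3 libraries lay above both day 1 libraries, and in Gusb below.

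Matrix genes rose as well. Of 19 basement membrane and collagen genes, 18 rose and none fell (median 0.91, 0.51 in B and 1.01 in BC on the log2(FPKM + 1) scale), with 7 rises without B of day 1 and 4 without BC of day 1. Spp1, osteopontin, was at 429 in B and 406 in BC on day 1, and 1177 and 1299.7 on day 3 (1.61 ± 0.13, adjusted p = 8.58e-05). Agrn, the basement membrane proteoglycan agrin, was at 56 in B and 51.4 in BC on day 1, and 127 and 170.3 on day 3 (1.48 ± 0.16, adjusted p = 0.000259). Of 18 matrix proteases and inhibitors, 12 rose and 4 fell (median 0.83), with 7 rises and no fall without B of day 1 and 3 and 1 without BC of day 1. Mmp2, gelatinase A, was at 23.5 in B and 19.6 in BC on day 1, and 86.4 and 141 on day 3 (2.41 ± 0.22, adjusted p = 0.000124). Mmp9 rose from a low level (3.51), as did the inhibitor gene Timp2 (0.80). Plaur, the urokinase receptor (-1.20), and Adamts9 (-0.74) fell. Timp2 and Plaur were not called without B of day 1 or BC of day 1. Adamts9 was not called without B of day 1 (highest adjusted p of these = 0.203).

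Antigen presentation genes rose, and interferon response genes went both ways. Of 33 genes of MHC class I and the interferon response, 17 rose and 3 fell (median 0.48), with 6 rises and 1 fall without B of day 1, 5 and 1 without BC of day 1, and 7 falls without BC of day 3. B2m, the light chain of MHC class I, was at 1444 in B and 1568 in BC on day 1, and 3093 and 3849.6 on day 3 (1.24 ± 0.13, adjusted p = 0.000215). The class I genes H2-T23 (2.28) and H2-Q7 (1.59), which resemble other class I genes and may share reads with them, rose. Rsad2, viperin, was at 129 in B and 152 in BC on day 1, and 66.4 and 60.1 on day 3 (-1.11 ± 0.15, adjusted p = 0.000519), and Isg15 (-0.72) and Ifit1 (-0.53) fell. Of the interferon response genes of the list, 7 rose, namely Irf7 (1.43), Ifitm2 (1.32), Ifitm3 (0.65), Xaf1 (0.57), Irf9 (0.50), Bst2 (0.48) and Irf1 (0.40). Of 17 chemokines and cytokines, 7 rose and 2 fell, with 4 rises and 1 fall when either day 1 library was left out and 4 falls without B of day 3. Cxcl10, the chemokine induced by interferon-γ, was at 358 in B and 369 in BC on day 1, and 92.2 and 71.5 on day 3 (-2.12 ± 0.15, adjusted p = 5.92e-05), and Ccl20 fell (-1.87). Ccl5, the most abundant, was at 295 in B and 344 in BC on day 1, and 662 and 601 on day 3 (1.03 ± 0.14, adjusted p = 0.000676), and Cx3cl1 (2.21) and Icam1 (1.93) rose. Isg15 and Ccl20 were not called without B of day 1 or BC of day 1. Ccl5 was not called without B of day 1. Icam1 was not called without BC of day 1 (highest adjusted p of these = 0.191).

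Retinal progenitor transcription factors rose in most cases. Of 14 tested, 11 rose and none fell (median 0.78), but 2 rose without B of day 1 and 1 without BC of day 1. Pax6 was at 20.6 in B and 21.9 in BC on day 1, and 33.8 and 82.3 on day 3 (1.36 ± 0.25, adjusted p = 0.00265), and BC of day 3 was more than 2 times B of day 3. Prox1, a homeobox factor of retinal neurons and glia, was at 5.54 in B and 5.65 in BC on day 1, and 13.5 and 20.3 on day 3 (1.62 ± 0.16, adjusted p = 0.000161). Id3, an inhibitor of bHLH factors that BMP induces, was at 59.3 in B and 64.2 in BC on day 1, and 113 and 225 on day 3 (1.42 ± 0.20, adjusted p = 0.000769). Six3 (0.73) and Sox2 (0.55) rose by less. Of other progenitor, glial and neuronal genes, Glul, glutamine synthetase, rose (0.70). Nes, nestin, was at 13.4 and 9.51 on day 1 and 14 and 6.2 on day 3 with B above BC on both days and was not called (-0.23 ± 0.18, adjusted p = 0.301). Rcvrn, Gfap and Rbfox3 were below an FPKM of 1 and were not tested. Pax6, Id3, Six3 and Glul were not called without B of day 1 or BC of day 1. Sox2 was not called without B of day 1, BC of day 1 or BC of day 3 (highest adjusted p of these = 0.372).

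Receptors and targets of developmental pathways followed. In the Notch pathway, through which neighboring progenitors hold each other back from differentiation, 7 of 13 tested genes rose and none fell (median 0.51), with 5 rises without B of day 1 and 1 without BC of day 1. Notch3 was at 0.18 in B and 0.06 in BC on day 1, and 3.43 and 5.46 on day 3 (5.16 ± 0.40, adjusted p = 7.08e-05). Notch1 was at 6.26 in B and 5.64 in BC on day 1, and 11.9 and 17 on day 3 (1.31 ± 0.17, adjusted p = 0.000556). Rbpj, the DNA-binding partner of Notch and the most abundant, was at 127 and 110.2 on day 1 and 183 and 104 on day 3 and was not called. Of 12 BMP response and Id genes, 9 rose and none fell (median 0.80), with 1 rise without B of day 1 and none without BC of day 1. Chrd, chordin, a BMP antagonist, rose from under 1 to 2.0 in B and 5.26 in BC (2.36 ± 0.32, adjusted p = 0.000595). Of 9 canonical Wnt feedback genes, 6 rose and 1 fell (median 1.17, 0.51 in B and 1.33 in BC on the log2(FPKM + 1) scale), with 3 rises without B of day 1 and 1 without BC of day 1. The 2 with the largest rises were Dkk3, a secreted glycoprotein of the Dickkopf family, at 15.4 in B and 9.62 in BC on day 1, and 102 and 85.5 on day 3 (2.98 ± 0.16, adjusted p = 4.36e-05), and Bmp4 (2.07). Bmp4 averaged an FPKM of 1.03, and the list held 23 genes, most of them too low to test. Notum (1.72), Apcdd1 (1.38), Dkk2 (1.17) and Axin2 (0.50) rose too, while Tcf7 (0.29) and Znrf3 (-0.45) were not called. Ccnd1 was the 1 that fell. Notch1 was not called without BC of day 1. Chrd, Bmp4 and Ccnd1 were not called without B of day 1 or BC of day 1 (highest adjusted p of these = 0.15).

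In the FGF pathway itself, 8 of 12 receptor and ligand genes rose and 1 fell (median 0.92), with 3 rises without B of day 1 and 2 without BC of day 1. This count and that of the ERK feedback genes below stand against 27.5% of all tested genes that rose and 27.5% that fell. Without bFGF, where 8198 of 11231 genes passed in either direction, 7 of the 12 receptor and ligand genes rose and 1 fell (median 0.80). Sdc4, a heparan sulfate co-receptor and the most abundant, was at 129.8 in B and 118 in BC on day 1, and 240.3 and 197 on day 3 (0.86 ± 0.13, adjusted p = 0.00101). Fgf7 was at 14.1 in B and 11.4 in BC on day 1, and 40.6 and 23.9 on day 3 (1.35 ± 0.16, adjusted p = 0.000307). Fgf11 rose from under 1 (2.33). Fgf15, an FGF of the embryonic retina, fell from 7.06 and 5.61 to 2.16 and 0.7 (-2.21 ± 0.34, adjusted p = 0.0011). ERK signaling is read out by its feedback inhibitors, and of 16 feedback and ETV genes 7 rose and 1 fell (median 0.37), with 3 rises without B of day 1, 1 without BC of day 1, and 5 falls without B of day 3. The median change of these 16 genes on the log2(FPKM + 1) scale was 0.36 in B and 0.11 in BC. In B 12 were higher on day 3 and 4 lower, while in BC 8 were higher and 8 lower. The FGF receptor antagonist gene Il17rd was at 2.28 in B and 1.42 in BC on day 1, and 5.72 and 4.73 on day 3 (1.55 ± 0.17, adjusted p = 0.000217) and the ETS factor gene Etv1 rose (1.42). Dusp4, an ERK phosphatase and the most abundant, was at 59.7 in B and 45 in BC on day 1, and 153 and 59.1 on day 3 (0.92 ± 0.22, adjusted p = 0.00794). BC of day 3 was just below B of day 1, so the days overlapped. Dusp14 fell (-0.87). Sdc4, Fgf7, Fgf15 and Dusp14 were not called without B of day 1 or BC of day 1. Etv1 was not called without BC of day 1. Dusp4 was not called without B of day 1, B of day 3 or BC of day 1 (highest adjusted p of these = 0.346).

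Immediate early genes, which ERK and stress kinases induce within minutes, changed about as often as all tested genes did. Of 14 tested, 4 rose and 4 fell, against 27.5% of all in each direction. None did either way without B or BC of day 1, 2 rose and 7 fell without B of day 3, and 6 rose and 3 fell without BC of day 3. Myc was at 87.5 in B and 52.9 in BC on day 1, and 48.5 and 18.5 on day 3 (-1.14 ± 0.18, adjusted p = 0.0011), lower in BC than in B on both days. Junb, the most abundant, was at 57.1 in B and 45 in BC on day 1, and 149.6 and 80.9 on day 3 (1.16 ± 0.16, adjusted p = 0.000658), Maff rose (1.03) and Ier2 fell (-0.66). Of 16 target genes of YAP and TAZ, the effectors of the Hippo pathway, 5 rose and 2 fell, with 2 and none without B of day 1, none either way without BC of day 1, and 4 falls without B of day 3. The share of YAP and TAZ targets that rose was near the 27.5% of all tested genes, and the share that fell was lower than that. Gadd45b was at 27.6 in B and 18.7 in BC on day 1, and 118 and 58.3 on day 3 (1.92 ± 0.16, adjusted p = 8.12e-05). Arhgef17 rose (0.86), Fjx1 (-0.76) and Ajuba (-0.40) fell. The receptor gene Axl, the most abundant, was at 809 and 601 on day 1 and 706 and 417 on day 3 and was not called. Myc and Ajuba were not called without B of day 1, BC of day 1 or BC of day 3. Junb, Ier2 and Fjx1 were not called without B of day 1 or BC of day 1. Maff was not called without B of day 1, B of day 3 or BC of day 1. Gadd45b and Arhgef17 were not called without BC of day 1 (highest adjusted p of these = 0.72).

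Among markers of differentiated cells, 7 of 11 tested Müller glia and astrocyte genes rose and none fell (median 1.02), with 5 rises without B of day 1 and 4 without BC of day 1. In bulk RNA, more cells of a type and more RNA per cell cannot be told apart. The 7 were Glul (0.70), Vim, Hopx (1.49), Apoe (2.51), Aldoc, Clu and Dkk3, while Gfap, Rlbp1 and Slc1a3 were at 0.04 or less in the 4 libraries. Vim, vimentin, was at 1815 in B and 1639.7 in BC on day 1, and 3502 and 3268 on day 3 (1.02 ± 0.13, adjusted p = 0.000416). Clu, clusterin, was at 4.44 in B and 3.22 in BC on day 1, and 20.8 and 40.1 on day 3 (2.95 ± 0.31, adjusted p = 0.000206). Of 7 tested neuronal markers, 2 rose and none fell, and the share that rose was near the 27.5% of all tested genes. Syt1 was at 0.73 in B and 0.44 in BC on day 1, and 3.23 and 4.07 on day 3 (2.67 ± 0.30, adjusted p = 0.000271) and Celf4 rose by 0.96, while Dcx and Rbfox3 were at 0.02 or less in the 4 libraries. Without BC of day 1 there was 1 rise, and 3 without BC of day 3. The summed FPKM of all 28 neuronal markers went from 30.1 in B and 31.2 in BC to 38.6 and 40.2. Vim and Celf4 were not called without BC of day 1 (highest adjusted p of these = 0.0853).

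The other marker lists were given by their sums. The 17 microglia and macrophage markers summed to 32.7 and 36.4 on day 1 and 116 and 111 on day 3. Cd68, a lysosomal membrane protein of macrophages, was at 2.03 in B and 2.93 in BC on day 1, and 36.8 and 12.1 on day 3 (3.15 ± 0.44, adjusted p = 0.000673), with Ptprc, Aif1 and Csf1r at 0.13 or less. The 16 endothelial and pericyte markers summed to 10.5 and 7.53 on day 1 and 22.7 and 35.2 on day 3. They were carried by Pdgfrb and Flt1 (1.66). Pdgfrb was at 8.75 in B and 6.21 in BC on day 1, and 18.5 and 31.9 on day 3 (1.76 ± 0.27, adjusted p = 0.00102), with Pecam1 and Cdh5 at 0.09 or less. The 26 fibroblast and mesenchymal markers summed to 1530 and 1190 on day 1 and 1300 and 1420 on day 3. Of 19 tested 11 rose and 2 fell, with 5 rises and no fall without B of day 1 and 4 and none without BC of day 1. Postn rose from 0.05 and 0.07 to 0.21 in B and 6.61 in BC (5.63 ± 0.75, adjusted p = 0.000544). Snai1 rose (2.46) and Snai2 fell (-0.65). S100a4, the most abundant, was at 1079.7 and 779 on day 1 and 859.6 and 844 on day 3 and was not called. The 14 RPE markers summed to 10.7 and 6.77 on day 1 and 26.0 and 14.4 on day 3, with Rpe65 at 0 in all 4. Rdh5 was at 9.63 in B and 5.19 in BC on day 1, and 24.4 and 12.5 on day 3 (1.36 ± 0.18, adjusted p = 0.000512). The 25 photoreceptor and bipolar markers summed to 8.55 and 8.24 on day 1 and 10.6 and 12.2 on day 3. No epithelial marker was tested, and their sum was 0.69 and 0.99 on day 1 and 1.37 and 1.35 on day 3. The part of other cells in the changes above was not tested. Cd68, Snai1 and Snai2 were not called without B of day 1 or BC of day 1. Pdgfrb and Flt1 were not called without BC of day 1. Postn was not called without B of day 1, BC of day 1 or BC of day 3. Rdh5 was not called without B of day 1, B of day 3 or BC of day 1 (highest adjusted p of these = 0.208).

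The remaining lists were described by counts, to be read against the 27.5% of all tested genes that rose and the 27.5% that fell. For cilium genes and the Wnt5a arm the share that rose was near that of all genes. Of 26 axon guidance genes 15 rose and 2 fell, of 15 replication-dependent histone genes, whose copies may share reads, 9 rose and 2 fell, and of 18 p53 targets 7 rose and 4 fell. Of 40 cilium genes 12 rose and 6 fell, of 22 Polycomb and DNA methylation genes 8 and 10, of 21 genes of the Wnt5a and calcium arm 6 and 3, and of 23 endoplasmic reticulum chaperone genes 2 and 8. Of 9 imprinted growth genes 4 rose and 2 fell, as in the IGF pathway with 9 tested, and of 9 EGF family genes 2 and 3. Of 2 tested crystallins 1 rose, and of 2 tested photoreceptor and bipolar markers 1 rose. Leaving out B of day 1 left 4 rises among axon guidance genes, 2 among histones, 4 among p53 targets, 1 among cilium genes, 2 among Polycomb genes and 1 in the Wnt5a arm. Leaving out BC of day 1 left 2, 1, 4, 0, 2 and 0. Of the falls among Polycomb genes 5 and 3 were left, and of those among endoplasmic reticulum chaperones 1 and 0. The Wnt5a arm had 10 rises without B of day 3.

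**Figure D3:**
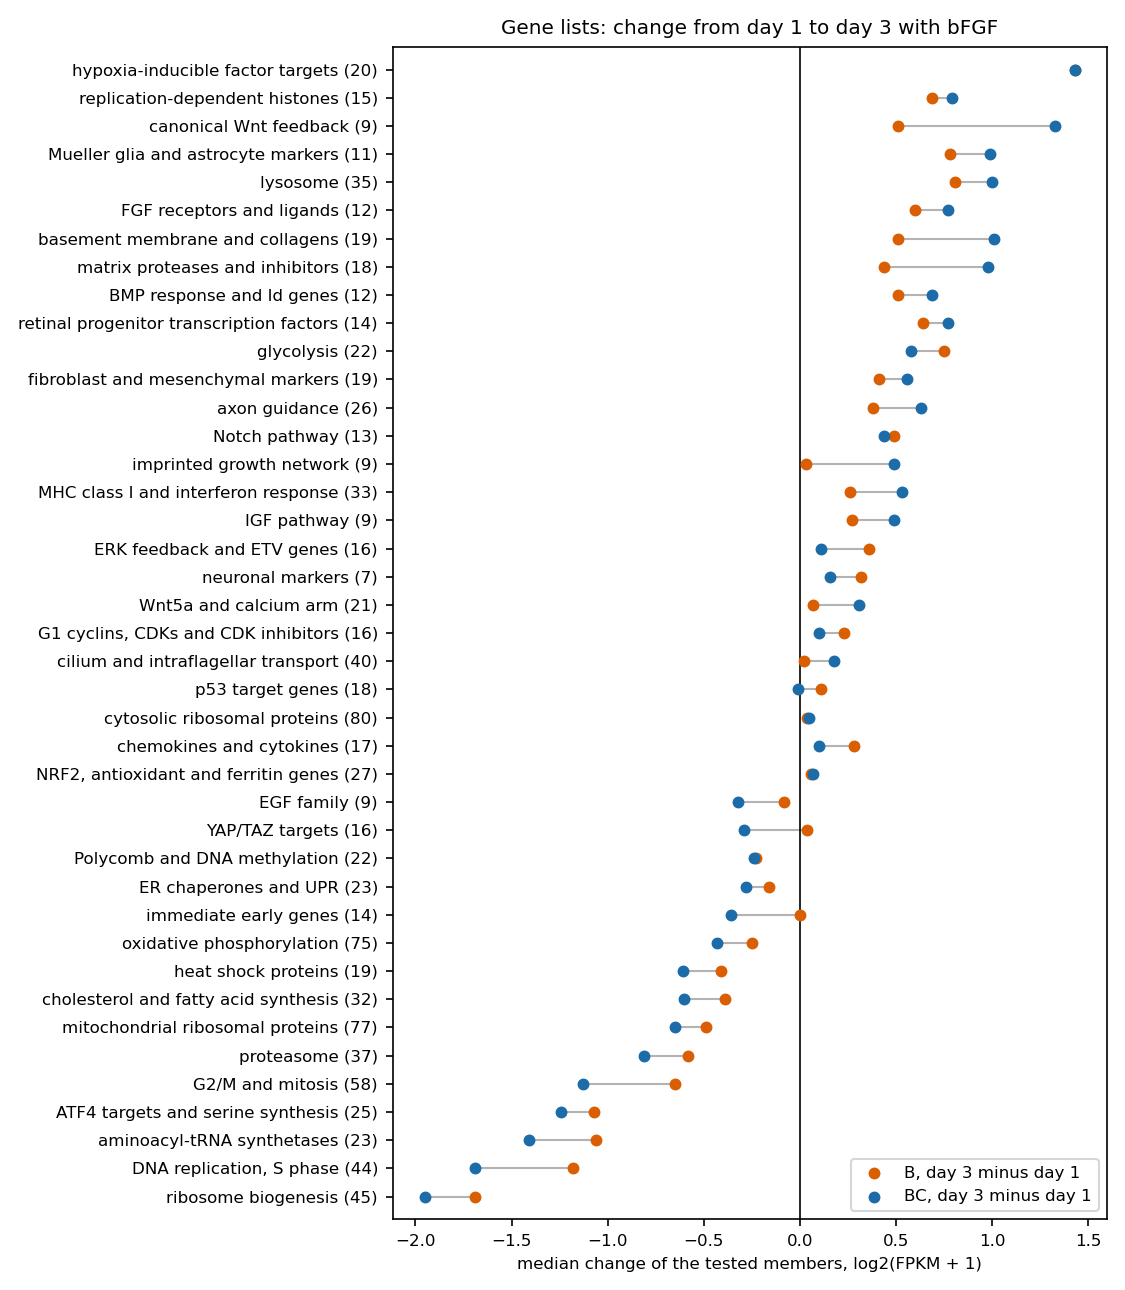
Median change from day 1 to day 3 of the tested members of each gene list with at least 7 of them, in B (orange) and BC (blue), as differences of log2(FPKM + 1), with the number of members in parentheses. HIF targets stood highest at 1.43 in both, and ribosome biogenesis lowest at -1.69 in B and -1.95 in BC.

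Part of the change from day 1 to day 3 was also seen without bFGF, in BM and C, which share no library with B and BC. Over those 4 libraries 8198 of 11231 genes passed an adjusted p under 0.05 in edgeR's test, with no rule on signs. The median change of all genes there was 0.007. List counts without bFGF are to be read against these 8198 genes, which were not split into rises and falls. The shares of 27.5% above hold for the fit with bFGF alone. Of 35 lysosome genes 30 rose there and 1 fell (median 0.86). Basement membrane and collagen genes rose in 17 of 21 and fell in 1 (1.05), and retinal progenitor factors in 11 and 1 of 14 (0.77). Proteasome genes fell in 32 of 37 and rose in 2 (-0.79). The bFGF by day interaction over the 8 libraries of days 1 and 3 passed an adjusted p under 0.05 in edgeR's test for 2565 of 11231 genes (22.8%). There was a more positive change with bFGF in 1581 (14.1%) and a more negative one in 984 (8.76%), both of the genes tested. Limma on log2(FPKM + 1) gave 1335 and 1274, a more even split. Of the 2565 genes, 981 had opposite signs with and without bFGF (582 up with bFGF and down without, 399 the reverse), 647 went down in both and by less with bFGF, and 311 went down in both and by more with bFGF. A further 351 went up in both and by more with bFGF, and 253 up in both and by less. The count was 708 without C of day 1, 913 without B of day 1, 950 without BC of day 1, 1020 without BM of day 1, 1127 without C of day 3, 1146 without BM of day 3 and 4604 without BC of day 3.

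Mitotic genes had the highest median interaction of the lists with at least 7 tested members (2.03). Of 58 genes of G2/M and mitosis, 56 had a less negative change with bFGF and none a more negative one, against 14.1% of all genes, with medians of -0.89 with and -2.92 without bFGF. Ube2c, at 161 in B and 109 in BC of day 3, was at 184 in BM and 197 in C on day 1, and 21.8 and 21.4 on day 3 (interaction 2.66 ± 0.23, adjusted p = 0.00178). Further groups leaned the same way, among them the cytosolic ribosomal proteins (75 of 80, medians 0.09 with and -0.78 without), cholesterol and fatty acid synthesis (29 of 32, -0.42 and -1.76), DNA replication (27 of 44, -1.51 and -2.23), glycolysis (16 of 22, 0.67 and -0.09), ATF4 targets (16 of 25, -1.13 and -2.01) and HIF targets (11 of 20, 1.49 and 0.55), and no member of these passed in the other direction. Leaving out each of the 8 libraries in turn left 51 to 57 mitotic genes, 54 to 76 ribosomal protein genes and 22 to 30 cholesterol genes. The count of replication genes was 4 to 14 when any 1 of B, BC, BM and C of day 1 and BM and C of day 3 was left out. The glycolysis count was 8 without C of day 1, 9 without BC of day 1, and 10 without B or BM of day 1. For ATF4 targets it was 8 without C of day 1, 9 without B of day 1 or BM of day 3, and 10 without BM of day 1. For HIF targets it was 4 without BC of day 1, 5 without C of day 1 and 6 without BM of day 1.

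Ribosome biogenesis went the other way. Of its 45 genes, 17 had a more negative change with bFGF and 1 a less negative one, against 8.76% of all genes, with medians of -1.80 with and -1.45 without bFGF. The 17 became 2 without BC, BM or C of day 1, 3 without C of day 3, 5 without BM of day 3, 8 without B of day 1 and 30 without B of day 3. Heatr1 was at 14.4 in BM and 12.2 in C on day 1, and 3.46 and 2.99 on day 3 without bFGF and at 20.8 and 19.6 on day 1 and 2.8 and 1.73 on day 3 in B and BC (interaction -1.07 ± 0.20, adjusted p = 0.0139). Both day 3 libraries lay below both day 1 libraries with and without bFGF, and the day 1 level was higher with bFGF. Of 16 YAP and TAZ targets, 6 had a more negative change with bFGF and 1 a more positive one. That count was 1 without B or C of day 1, 2 without BM of day 3, 4 without BC of day 1, BM of day 1 or C of day 3, and 9 without B of day 3.

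Among the genes with opposite signs with and without bFGF, the 5 furthest apart in each direction were named. Gdf15 was at 24.4 in BM and 23.5 in C on day 1, and 2.79 and 3.26 on day 3 without bFGF, where it fell, and rose with it (interaction 4.51 ± 0.46, adjusted p = 0.00216). Csn3, κ-casein, was at 57.5 and 74 on day 1 and 106 and 109 on day 3 in B and BC and 54.4 in BM and 57.1 in C on day 1, and 10.5 and 5.85 on day 3 (interaction 3.54 ± 0.33, adjusted p = 0.00187). Crabp2, a retinoic acid binding protein, was at 6.07 and 4.28 on day 1 and 20.1 and 10.1 on day 3 in B and BC and 24.8 in BM and 12.8 in C on day 1, and 8.31 and 3.44 on day 3 (interaction 3.26 ± 0.27, adjusted p = 0.0016). For these 3 genes the day 3 libraries with bFGF were above both day 1 libraries with bFGF, and the day 3 libraries without bFGF below both without. Acta2, smooth muscle actin, was at 15.4 and 11.5 on day 1 and 9.12 and 8.83 on day 3 in B and BC and at 53.6 in BM and 22.3 in C on day 1, and 376 and 226 on day 3 (interaction -3.56 ± 0.38, adjusted p = 0.00255). Ctgf, a YAP target, was at 4.82 and 1.86 on day 1 and 2.63 and 1.3 on day 3 in B and BC and at 4.76 in BM and 1.03 in C on day 1, and 20.6 and 23.8 on day 3 (interaction -3.86 ± 0.73, adjusted p = 0.0134). Of the 8 libraries, BM and C of day 3 were the highest for both, and Ctgf was not called with bFGF (adjusted p = 0.0551 by edgeR). The growth factor gene Ptn (interaction 3.18) and Anxa8 (3.17) leaned with Gdf15, and Npy1r (-2.79, not called with bFGF), Them6 (-2.65) and Tmem150a (-2.58) with Acta2. The calls that follow are those of the day 3 against day 1 test with bFGF, and not of the interaction. Gdf15, Csn3, Crabp2, Them6 and Tmem150a were not called without B of day 1 or BC of day 1. Acta2 was not called with any library left out. Ptn was not called without B of day 1, BC of day 1 or BC of day 3. Anxa8 was not called without BC of day 1 (highest adjusted p of these = 0.845).

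**Figure D4:**
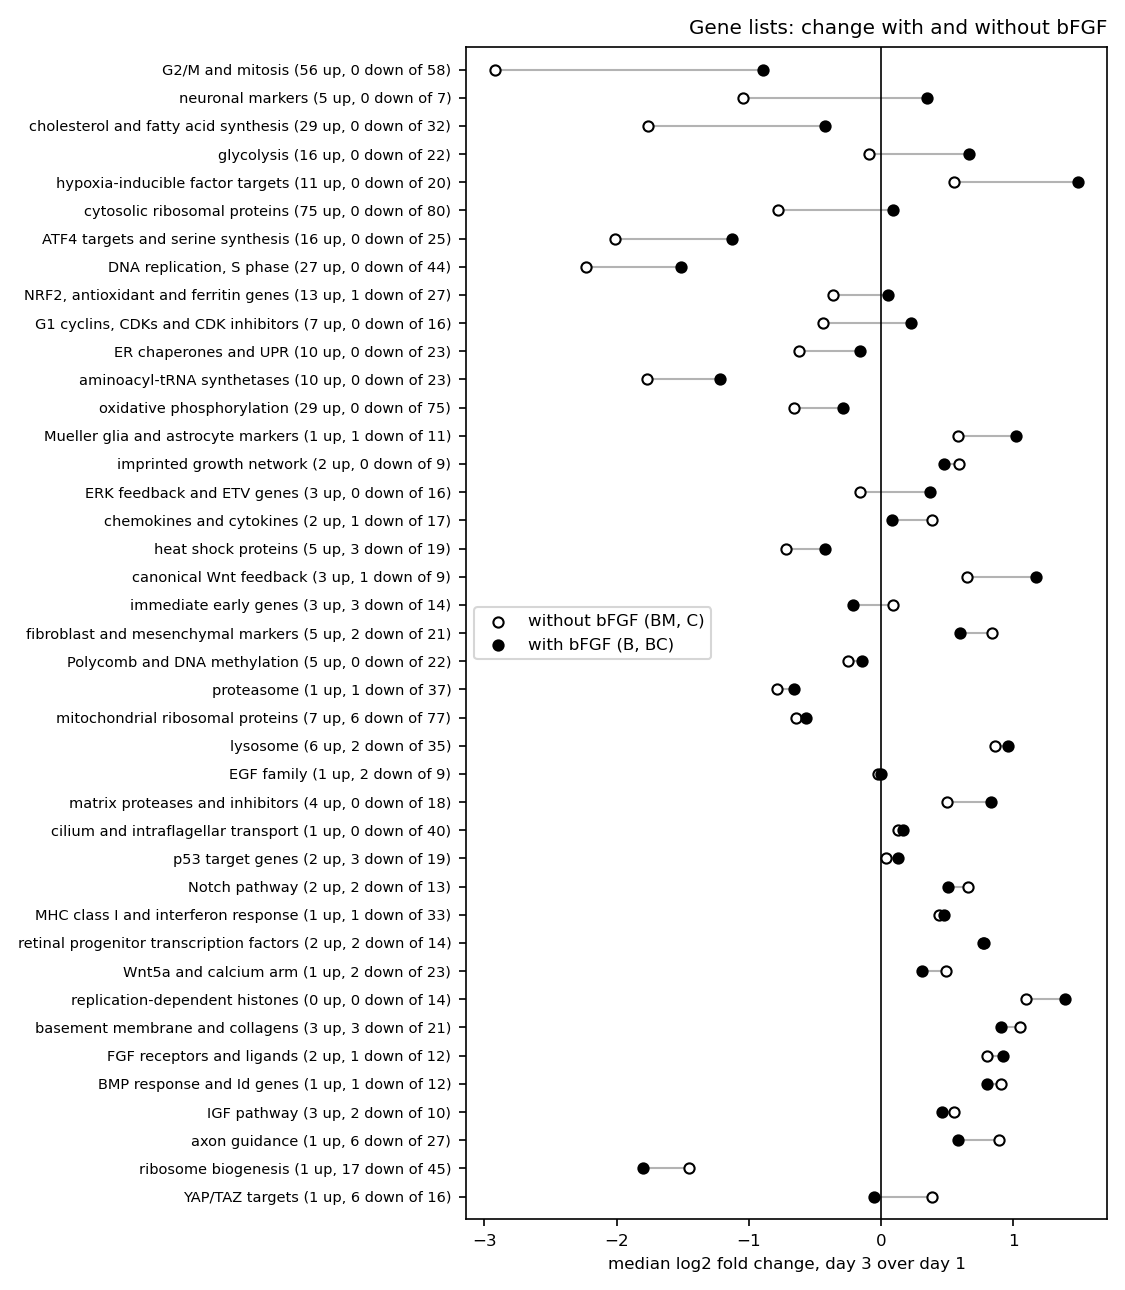
Median log2 fold change from day 1 to day 3 of each gene list with at least 7 tested members, with bFGF (filled, B and BC) and without (open, BM and C), each fitted on its own 4 libraries and over the genes tested in that fit, ordered by the median interaction. Parentheses give how many members had a more positive (up) or more negative (down) change with bFGF, and G2/M and mitosis lay furthest apart at -0.89 and -2.92.

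The genes at which B and BC parted on day 3 were listed next, from 1 library of each and so without a test. At least 2 times apart on the log2(FPKM + 1) scale were 235 of 11139 genes (2.11%), 131 higher in BC (1.18%) and 104 lower (0.934%). On day 1 the same rule gave 18 genes (0.162%), on day 5 it gave 64 and on day 7 it gave 50, and C and BM were so far apart in 34, 37, 44 and 41 genes on days 1, 3, 5 and 7. The day 3 difference between B and BC therefore took in more genes than any other difference of this kind in the series. Of the 131 genes higher in BC, 101 were among those that rose from day 1 to day 3 and 4 among those that fell. Of the 104 genes lower in BC, 31 rose, 16 fell and 50 changed with opposite signs in B and BC. Of all tested genes, 27.5% rose and 27.5% fell. The 131 and 104 genes were chosen by day 3 values that the day 3 against day 1 test also uses. Their counts of rises and falls therefore follow in part from the choice and give no separate support.

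Genes higher in BC on day 3 included several secreted proteins. Ass1, argininosuccinate synthase, was at 23.5 in B and 177 in BC of day 3, from 4.92 and 6.4 on day 1. Serpina3n, a serine protease inhibitor, was at 6.22 and 42.7, and Olfml3, a secreted olfactomedin-like protein, at 22.4 and 121. In each of these BC of day 3 stood alone above the other 3 libraries or far above B of day 3. Mab21l1, an eye development gene, was at 7.3 and 37.2, 1500015O10Rik at 4.06 and 18.6, Cdhr5 at 7.17 and 32.9 and Spon2 at 6.58 and 27. Gm5601 was listed at 0 in B and at 3.81 in BC. Pax6 was on this side as well, with its values given above. Of 26 axon guidance genes, 3 were at least 2 times higher in BC (Nrp1, Sema3d and Sema6d) and 1 at least 2 times lower (Epha2), against 1.18% and 0.934% of all genes. The median difference of the 131 genes was 0.09 on day 1, 1.22 on day 3, 0.62 on day 5 and 0.35 on day 7, and 24 and 14 were still at least 2 times higher in BC on days 5 and 7.

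Genes lower in BC on day 3 included immediate early genes and members of the ERK feedback and YAP lists. Egr1, an immediate early zinc finger factor, was at 20.1 and 17.5 on day 1 and 29.5 and 4.87 on day 3 in B and BC, so that BC of day 3 stood alone below the other 3 libraries. Dusp5, a nuclear ERK phosphatase, was at 29.4 and 16.2 on day 1 and 31.6 and 7.16 on day 3. Cyr61, a matricellular YAP target, was at 340.5 and 162 on day 1 and 463 and 115 on day 3 and was highest in B of day 3. Ankrd1, another YAP target, was at 23.5 and 15.3 on day 1 and 23.1 and 5.07 on day 3, and Nppb, the natriuretic peptide B gene, at 24.7 and 12.2 on day 1 and 36.7 and 6.36 on day 3. Pim1, a kinase gene, rose in both (15.2 and 6.79 on day 1 and 83.7 and 21.3 on day 3, 2.13 ± 0.20, adjusted p = 0.000142). Siglecg was at 5.77 and 2.92 on day 1 and 11.8 and 2.37 on day 3. Sh2d6 was at 13.5 and 18 on day 1 and 24.3 and 5.73 on day 3. Pim1 was not called without B of day 1, B of day 3 or BC of day 1 (highest adjusted p = 0.189). Of 14 immediate early genes, 5 were at least 2 times lower in BC of day 3 (Egr1, Myc, Maff, Fosl1 and Ier5), none was higher, and 0.934% of all genes were lower. Fosl1 was at 87.4 in B and 37.5 in BC and Ier5 at 28.8 and 13.1. Also lower in BC were 2 of 16 ERK feedback genes (Dusp4 and Dusp5), 2 of 9 EGF family genes (Hbegf and Errfi1), 2 of 16 YAP and TAZ targets (Cyr61 and Ankrd1), 2 of 19 heat shock genes (Hspb1 and Cryab) and 2 of 17 chemokines and cytokines (Ptgs2 and Lif). These members were named after their values were seen. The median difference of the 104 genes was -0.41 on day 1, -1.23 on day 3, -0.41 on day 5 and -0.42 on day 7, and 3, 7 and 11 of them were at least 2 times lower in BC on days 1, 5 and 7.

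**Figure D5:**
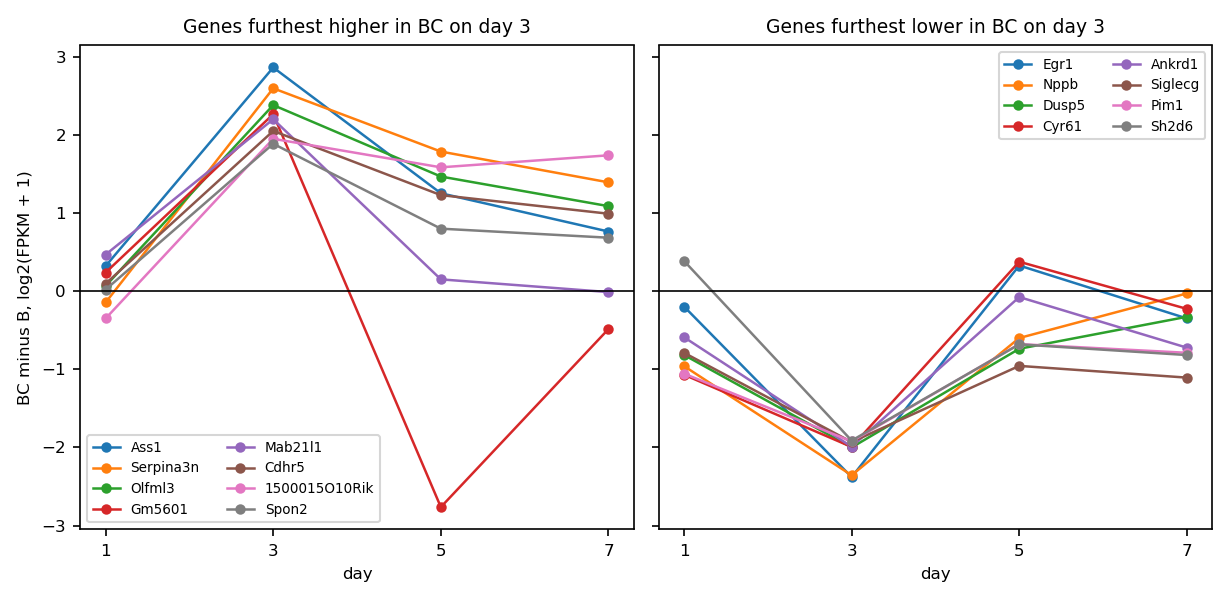
Difference between BC and B (y axis, log2(FPKM + 1)) on days 1, 3, 5 and 7 (x axis) for the 8 genes furthest higher (left) and the 8 furthest lower in BC on day 3 (right), 1 library per treatment and day, lines joining the days of a gene. The genes were chosen for their day 3 value, and on day 7 the left-hand differences ran from -0.48 for Gm5601 to 1.74 for 1500015O10Rik.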

How the data were processed

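RNA-seq libraries (BGISEQ-500) were compared on the expected counts and FPKM values that the authors deposited per gene and library, with a gene not listed taken as 0. The submitters' processing notes name mm10, Bowtie2 and RSEM. Expected counts were rounded. Genes averaging 1 FPKM or more were tested with edgeR's quasi-likelihood test (edgeR 4.0.16, R 4.3.3, TMM factors) on day with CHIR99021 as covariate, and the interaction over the 8 libraries of days 1 and 3, with Benjamini-Hochberg adjustment and a threshold of 0.05. A call also needed the same sign in B and BC of the change on log2(FPKM + 1). With 1 of the 4 bFGF libraries left out of the day test, CHIR99021 was dropped as covariate. The spread was then that of B against BC of the other day, and the lone library was assumed to vary like the others. The interaction kept CHIR99021 as covariate when a library was left out. B and BC of 1 day were compared on log2(FPKM + 1), with no test.

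Named were the 15 largest called changes per direction at an average of 5 FPKM or more, for the lists described gene by gene up to 2 called members per direction and the most abundant, the 8 genes furthest apart between B and BC of day 3 per direction, and the 5 furthest apart with opposite signs with and without bFGF. Some genes outside the rule are given with their promoters or as counted members, chosen after their values were seen. The libraries, 47 gene lists and named genes were chosen with earlier results of these data known. Alternatives used DESeq2 1.42.0, limma 3.58.1, RLE factors, other filters, pseudocounts and library sets. On simulated counts with 200 changed genes of 11139, the day fit recovered 95% of 2-fold and 100% of 4-fold changes with 8 false calls among 203. The interaction fit on 11231 genes recovered 75% and 99% with 5 among 179. The simulated libraries varied independently at 1 set spread, with no effect of CHIR99021 and far fewer changed genes than the 6126 called. These rates therefore need not hold for the real libraries. Promoter sequence came from RefSeq (GRCm38.p6), matched by Entrez gene ID for 8979 tested genes. A few genes that the rule names are not reported here.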

Additional observations from a re-analysis of the deposited data

Results flagged for a closer look

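The change from day 1 to day 3 differed between media with and without bFGF in 2565 genes by the test of the interaction itself. The values below are interactions on the log2 scale, the change with bFGF minus the change without, each past the adjusted threshold in edgeR's test.

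Among the 15 largest rises with bFGF, the interaction was 3.53 for Angptl7, 2.59 for Car9, 1.34 for Txnip, 4.52 for Aqp8 and 2.31 for Gstt1. Among the 15 largest falls it was negative for Aen (-1.26), Heatr1 (-1.07), Heatr3 (-1.57), Ranbp1 (-0.53), Utp20 (-0.71), Bysl (-0.83), Ddx21 (-0.85) and Nolc1 (-0.72), which fell further with bFGF. It was positive for Recql4 (1.54) and Rrm2 (1.06), which fell further without it.

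Of genes with opposite signs in the 2 settings, the interaction was 4.51 for Gdf15, 3.54 for Csn3, 3.26 for Crabp2, 3.18 for Ptn and 3.17 for Anxa8. It was -3.86 for Ctgf, -3.56 for Acta2, -2.79 for Npy1r, -2.65 for Them6 and -2.58 for Tmem150a.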

How the results depend on the processing

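With no library left out, the count of changed genes stayed within 1.5 times 6126 under every alternative run, from 4934 with DESeq2 to 7243 in the fit of the 8 libraries of days 1 and 3. With 1 library left out it ran from 1390 to 6842. The interaction count ran from 708 to 4604 with a library left out and was 1563 without CHIR99021 as covariate. Genes at least 2 times apart between B and BC of day 3 numbered 413 with a pseudocount of 0.1, 150 with a minimum mean FPKM of 5 and 1097 at 1.5 times. By design, the day fits with 1 of the 4 bFGF libraries left out took their spread from the day that kept B and BC. Other causes were not tested.

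Of 156 named genes past the threshold, 140 passed in every alternative that left out no library, and 76 with each library left out. With each library left out in turn, the log2 fold change changed sign for 15 genes, whose ranges were Egr1 -1.91 to 0.71, Nppb -1.41 to 1.09, Dusp5 -1.63 to 0.53, Cyr61 -1.09 to 0.94, Ankrd1 -1.90 to 0.31, Siglecg -1.05 to 1.37, Sh2d6 -1.42 to 0.67 among genes chosen for the day 3 difference between B and BC, and Rbpj -0.09 to 0.72, S100a4 -0.30 to 0.18, Axl -0.72 to 0.06, Psmd8 -0.29 to 0.72, Ctgf -1.33 to 0.13, Npy1r -1.32 to 0.02, Nes -0.85 to 0.34 and Ptn -0.05 to 1.95 among the others. Nppb was -0.03 with DESeq2, -0.18 and -0.15 in limma with pseudocounts of 0.1 and 1, -0.05 with no filter and -0.02 without TMM. Cyr61 was -0.02 in both limma fits and without TMM, and -0.04 with no filter. Of these genes Ptn alone was called.

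With 1 library per treatment and day, the p-values rest on 1 residual degree of freedom for 4 libraries and 3 for 8. The labels give no replicate numbers. The CHIR99021 covariate set day 3 against day 1 within B and within BC, and 5402 genes were called without it.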
